A study of Mus musculus with 8 samples.

Results

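A group of 10 genes that are best known from somatic and immune cells, 10 of the 54838 genes in the count table, was followed across mouse oocytes with and without BAF250a. They are the secreted and matrix genes Spp1, Timp1, Lox, Vegfa and Ccl3, the stress gene Nupr1, and the leukocyte and antigen presentation genes Cd52, Cd300c, Cd74 and H2-D1. They were picked by name because reads were seen in control MII libraries, in 1 or in both, and hardly any in knockout MII libraries. The difference between knockout and control MII is therefore how they were chosen, and it is given here as a description, with no test. The rule set no numerical threshold. What the rule did not use is the knockout effect at the earlier stage, the neighbouring genes of each pathway and the markers of other cell types.

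RNA was sequenced from oocytes of C57BL/6 mice, with 5 to 10 oocytes in each library. Knockout oocytes (genotype BAF250aGKO) came from mice in which Gdf9-cre, active in growing oocytes, removes BAF250a, the protein of Arid1a and a DNA-binding subunit of the BAF chromatin remodelling complex, while control oocytes were wildtype. Oocytes were taken at metaphase of the second meiotic division (MII), the mature egg, or before meiosis resumes, at the germinal vesicle (GV) stage. There were 2 libraries in each of the 4 groups, knockout MII, control MII, knockout GV and control GV. Gdf9-cre acts in the oocyte, so the ovarian cells around it keep the gene. Neither the way these cells were removed nor whether both libraries of a group came from separate animals is stated, so a p-value covers the spread of these libraries alone, which may be technical. Both control MII columns carry the same name, so they are called libraries a and b, in no particular order.

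Spp1 encodes osteopontin, a secreted phosphoprotein of bone, macrophages and healing tissue that binds integrins. Timp1 blocks the metalloproteinases that digest matrix, and Lox cross-links collagen and elastin. Vegfa is the growth factor for blood vessels and a classic target of the hypoxia factor HIF, and Ccl3 is a chemokine that draws in leukocytes. Nupr1 is a small nuclear protein switched on by stress, in part through ATF4. Cd52 is a short glycoprotein anchored in the lymphocyte surface, Cd300c a receptor of the CD300 family on myeloid cells, Cd74 the invariant chain that escorts class II histocompatibility molecules, and H2-D1 a heavy chain of class I. In the ovary such genes are known from granulosa, stromal, endothelial and immune cells.

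Promoter sequence from RefSeq was at hand for 7 of the 10 genes, in 9 windows of 250 bases before the annotated start, on the plus strand for Spp1, Timp1 and H2-D1 and on the minus strand for Nupr1 (build GRCm38.p6). Those of 4 genes with matches to a searched motif are printed 5′ to 3′ because they show which of the searched letters stand before genes that share a pattern of reads. Capitals mark matches, on either strand, to TATAAA (a core promoter box), AGGAAGT (bound by PU.1 and other ETS factors), ACGTG (core of the hypoxia response element) and TTGCATCA (ATF4 with C/EBP). The Spp1 window is chr5:104434861-104435110, that of Nupr1 chr7:126625471-126625720, that of Timp1 chrX:20869916-20870165 and that of H2-D1 chr17:35262844-35263093.
Spp1: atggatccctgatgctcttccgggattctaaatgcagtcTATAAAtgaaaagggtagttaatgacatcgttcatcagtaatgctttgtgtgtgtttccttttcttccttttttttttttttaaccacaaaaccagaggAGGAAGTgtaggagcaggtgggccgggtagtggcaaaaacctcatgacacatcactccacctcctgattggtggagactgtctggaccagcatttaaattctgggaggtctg
Nupr1: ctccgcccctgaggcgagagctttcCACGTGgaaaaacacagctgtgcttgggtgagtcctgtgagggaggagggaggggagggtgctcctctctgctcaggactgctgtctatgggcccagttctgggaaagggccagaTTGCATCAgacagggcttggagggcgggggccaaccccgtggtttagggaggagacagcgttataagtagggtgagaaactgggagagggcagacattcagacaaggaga
Timp1: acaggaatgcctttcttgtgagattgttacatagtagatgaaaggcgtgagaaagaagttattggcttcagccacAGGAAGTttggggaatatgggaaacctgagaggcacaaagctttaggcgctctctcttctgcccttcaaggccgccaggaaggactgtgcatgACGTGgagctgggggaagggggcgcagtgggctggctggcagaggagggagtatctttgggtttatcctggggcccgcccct
H2-D1: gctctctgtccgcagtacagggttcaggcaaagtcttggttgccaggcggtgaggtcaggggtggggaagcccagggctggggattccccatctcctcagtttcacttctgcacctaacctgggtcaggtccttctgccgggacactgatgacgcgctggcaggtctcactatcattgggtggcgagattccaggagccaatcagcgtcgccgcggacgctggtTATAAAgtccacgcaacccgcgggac

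The TATAAA of H2-D1 began 26 bases before the start, and that of Spp1 211 bases before it. The Spp1 window also held AGGAAGT 112 bases before the start, and the Timp1 window held it at 175, with an ACGTG at 82. In Nupr1 the ACGTG is part of CACGTG, which reads the same on both strands, and TTGCATCA lay at 110. One of the 2 Vegfa windows held ACGTG at 211, and the windows of Cd300c and Ccl3 held none of the 5 motifs searched. Of 32851 windows of the same length, 16.6% held ACGTG, 12.4% TATAAA, 7.69% AGGAAGT, 0.791% TTGCATCA and 3.72% the NF-kB type GGGNNTTTC. No window of these genes held GGGNNTTTC, but other forms of NF-kB site were not searched, so such sites are not called absent. No motif was thus shared by most of the 7 genes, and a match is letters only, not a bound site.

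**Figure D1:**
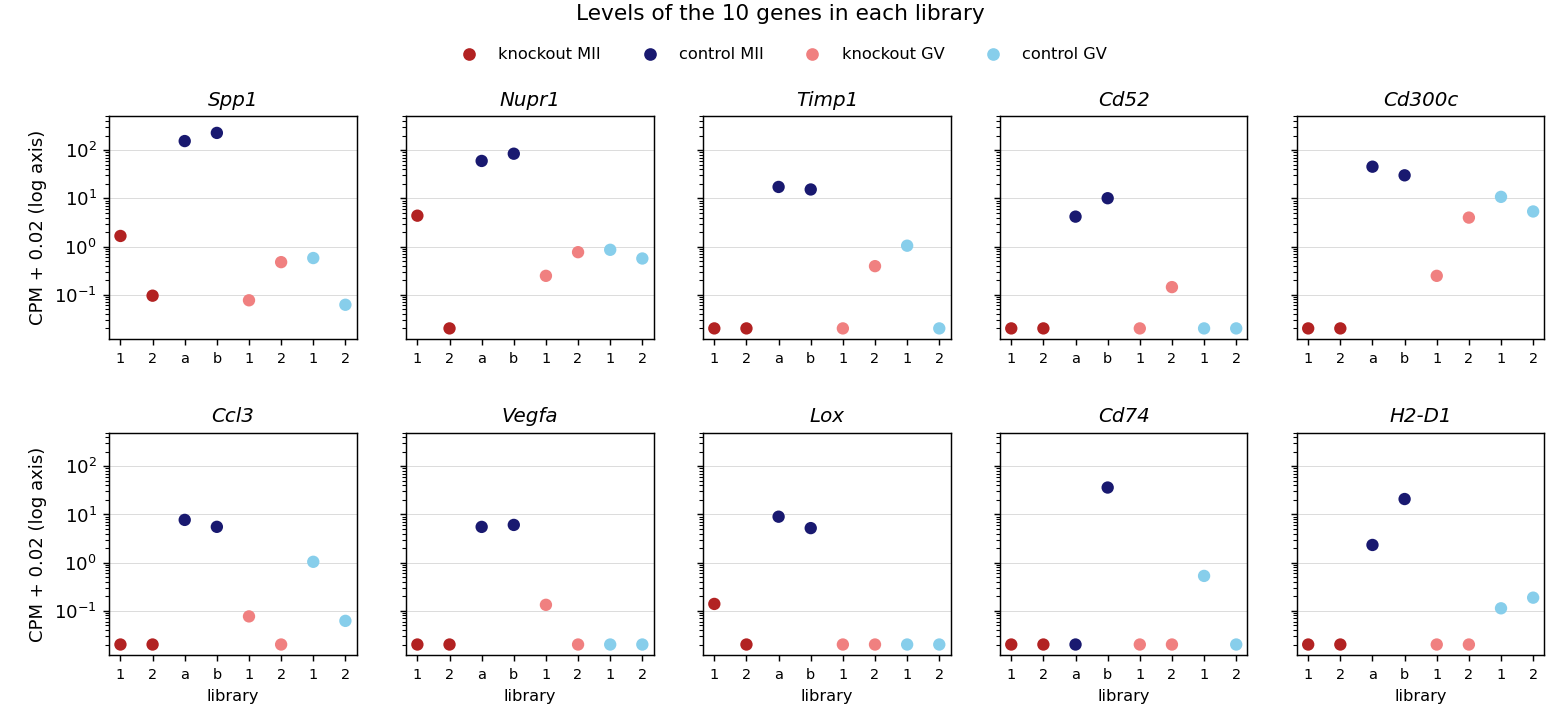
Level of each of the 10 genes in every library, in CPM (read counts scaled to library depth) plus 0.02 on a log axis, with 1 point per library coloured by group; points at 0.02 are libraries with 0 reads. The control MII points (dark blue) stand above all others in 9 panels, and in the Cd74 panel only library b does.

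The libraries held 19587421 to 33289150 reads in genes, so that 3 reads, the floor used here for a gene with no reads, equal 0.0894 to 0.17 CPM. Arid1a, read first as the check of the knockout, held 1109 and 576 reads in knockout MII against 42047 and 39148 in control MII, and 86 and 312 reads in knockout GV against 8178 and 10928 in control GV. It was lower at both stages (log2 fold change -5.73 ± 0.50 SE at MII, adjusted p = 0.000463, and -5.55 ± 0.50 at GV, adjusted p = 0.000526). Oocyte markers were present throughout: Gdf9 stood at 9420 and 8280 CPM in knockout MII, 10600 and 8550 CPM in control MII, 21700 and 15800 CPM in knockout GV and 15000 and 15100 CPM in control GV. Of 16 oocyte markers none passed the test at GV and 1 fell at MII, Figla, beside 3.44% of all 15572 genes tested. That call was lost with any 1 library left out other than control MII library b, and with scaling by library totals alone. Mitochondrial transcripts took 3.03% and 4.41% of reads in knockout MII and 6.03% and 6.93% in control MII, but between 0.105% and 0.446% in GV libraries. Replicates correlated across genes at 0.967 to 0.981. These are bulk values, in which fewer cells of a type and less RNA per cell cannot be told apart.

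Summed over the 10 genes, knockout MII libraries held 6.11 and 0.0755 CPM, control MII libraries 305 and 442 CPM, knockout GV libraries 0.68 and 5.66 CPM and control GV libraries 14.8 and 6.12 CPM. Spp1 alone made up 50.6% and 51.7% of the control MII sums. Without it the sums were 4.47 and 0 CPM in knockout MII, 151 and 214 CPM in control MII, 0.623 and 5.2 CPM in knockout GV and 14.2 and 6.08 CPM in control GV. The high value is thus that of the control MII libraries: both stages were low in the knockout, and so were the control GV libraries. In knockout MII library 1, 3 of the 10 genes had a read, and in library 2 only Spp1 did.

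Among the secreted genes, Spp1 (ENSMUSG00000029304, mm10 chromosome 5, 104435118 to 104441050, plus strand) was by far the most abundant. It held 1.64 and 0.0755 CPM in knockout MII (55 and 2 reads), 154 and 228 CPM in control MII (4014 and 6905 reads), 0.0566 and 0.454 CPM in knockout GV and 0.557 and 0.0419 CPM in control GV. Only the control MII libraries are high, and the 6 others are all below 2 CPM. From the pooled reads Spp1 was 205-fold lower in knockout MII than in control MII (95% interval 158 to 270, which, as everywhere here, covers counting error only). The size of this fold rests on knockout library 1: without it the fold was 2570, on 2 reads, and without knockout library 2 it was 118. An unnamed gene, Gm42793, shares 309 exon bases (18.8% of the Spp1 exons) on the same strand, and how reads there were assigned is not stated.

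Timp1 (ENSMUSG00000001131, mm10 chromosome X, 20870166 to 20874735, plus strand) had 0 reads in both knockout MII libraries, against 17.2 and 15.3 CPM in control MII (448 and 462 reads). Knockout GV libraries held 0 and 0.372 CPM and control GV libraries 1.02 and 0 CPM. The control MII pair agreed closely, at 16.2 ± 1.39 CPM (SD, n = 2), and knockout MII was at least 160-fold lower. The gene lies inside the span of Syn1, a synaptic vesicle gene, but shares no exon base with it.

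Lox (ENSMUSG00000024529, mm10 chromosome 18, 52516067 to 52529867, minus strand) had 0.119 and 0 CPM in knockout MII (4 and 0 reads) and 8.96 and 5.19 CPM in control MII (233 and 157 reads). All 4 GV libraries had 0 reads. It was 104-fold lower in knockout MII (95% interval 40.3 to 384), and at least 62.5-fold lower without knockout library 1 or 58.2-fold without library 2. Vegfa (ENSMUSG00000023951, mm10 chromosome 17, 46016993 to 46032369, minus strand) behaved alike, with 0 reads in both knockout MII libraries and 5.5 and 6.05 CPM in control MII (143 and 183 reads). At GV it held 0.113 and 0 CPM in the knockout and 0 reads in both controls. Control MII averaged 5.77 ± 0.386 CPM (SD, n = 2), and knockout MII was at least 57.0-fold lower.

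Ccl3 (ENSMUSG00000000982, mm10 chromosome 11, 83647844 to 83649355, minus strand) had 0 reads in both knockout MII libraries and 7.69 and 5.52 CPM in control MII (200 and 167 reads), at least 65.2-fold lower in the knockout. At GV it held 0.0566 and 0 CPM in knockout and 1.02 and 0.0419 CPM in control libraries, so that a GV control library held a trace of it too (22 reads). Its near neighbour in sequence, Ccl4, another macrophage chemokine, was low everywhere at MII: 0.268 and 1.32 CPM in the knockout and 2.23 and 3.34 CPM in the control (adjusted p = 0.498, edgeR quasi-likelihood test).

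Nupr1 (ENSMUSG00000030717, mm10 chromosome 7, 126623249 to 126630861, minus strand) was second to Spp1 in CPM. It held 4.35 and 0 CPM in knockout MII (146 and 0 reads), 59.7 and 84.4 CPM in control MII (1553 and 2555 reads), 0.227 and 0.744 CPM in knockout GV and 0.836 and 0.545 CPM in control GV. It is the gene with the most reads left in a knockout MII library, all of them in library 1, the library that also held nearly all the remaining Spp1 and all the Lox reads. Pooled, it was 30-fold lower in knockout MII (95% interval 25.5 to 35.7), 16.8-fold without knockout library 2 and at least 636-fold without library 1.

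Among the leukocyte genes, Cd300c (ENSMUSG00000058728, mm10 chromosome 11, 114956116 to 114969157, minus strand) stood apart by its level at GV. It had 0 reads in both knockout MII libraries, 45.4 and 30.0 CPM in control MII (1180 and 909 reads), 0.227 and 3.97 CPM in knockout GV (4 and 96 reads) and 10.7 and 5.32 CPM in control GV (231 and 127 reads). It is the only one of the 10 above 3 CPM in any GV library. Knockout MII was at least 372-fold lower than control MII and at least 20.7-fold lower than knockout GV. Because CD300 receptors resemble each other, reads could have been split among them by the counting.

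Cd52 (ENSMUSG00000000682, mm10 chromosome 4, 134082448 to 134095082, minus strand) lies 325.7 kb from Arid1a, on the chromosome that carries the deleted gene. It had 0 reads in both knockout MII libraries and 4.15 and 10.0 CPM in control MII (108 and 304 reads), with 0 and 0.124 CPM in knockout GV and 0 reads in both control GV libraries. Knockout MII was at least 70.1-fold lower, or at least 41.0-fold without control library b. Its exons share 172 bases (14.5%) with Crybg2 on the opposite strand, and the strand setting of the counting is not stated.

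Cd74 (ENSMUSG00000024610, mm10 chromosome 18, 60803848 to 60812652, plus strand) was a gene of 1 library. It had 0 reads in both knockout MII libraries, 0 and 36.2 CPM in control MII (0 and 1095 reads), 0 reads in both knockout GV libraries and 0.511 and 0 CPM in control GV (11 and 0 reads). The control MII mean of 18.1 ± 25.6 CPM (SD, n = 2) describes neither library. The fold of at least 179 for knockout against control MII rests on library b alone, since library a, like the knockout, had no read of it, and it was at least 357 without library a. H2-D1 (ENSMUSG00000073411, mm10 chromosome 17, 35262730 to 35267499, plus strand) also stood mostly in library b, with 0 reads in both knockout MII libraries and 2.31 and 20.9 CPM in control MII (60 and 632 reads). It was at least 114-fold lower in knockout MII, and at least 22.8-fold without control library b or at least 206-fold without library a. Class I heavy chains are alike in sequence, so the split of reads among them is uncertain.

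In all, 7 of the 10 genes had 0 reads in both knockout MII libraries and 9 had both knockout MII libraries below both controls, Cd74 being the exception. Over all 15572 genes tested, 8.51% had 0 reads in both knockout MII libraries and 24.7% had that order. At an adjusted p below 0.05, 5.14% of the tested genes differed at MII, 1.7% being higher and 3.44% lower in the knockout. The genes were chosen on this contrast, so nothing is read from the set beside the background. All 10 passed the filter on low counts. Cd74, read only in control MII library b and control GV library 1, passed through these together. The others had enough reads in both control MII libraries to pass on those alone.

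**Figure D2:**
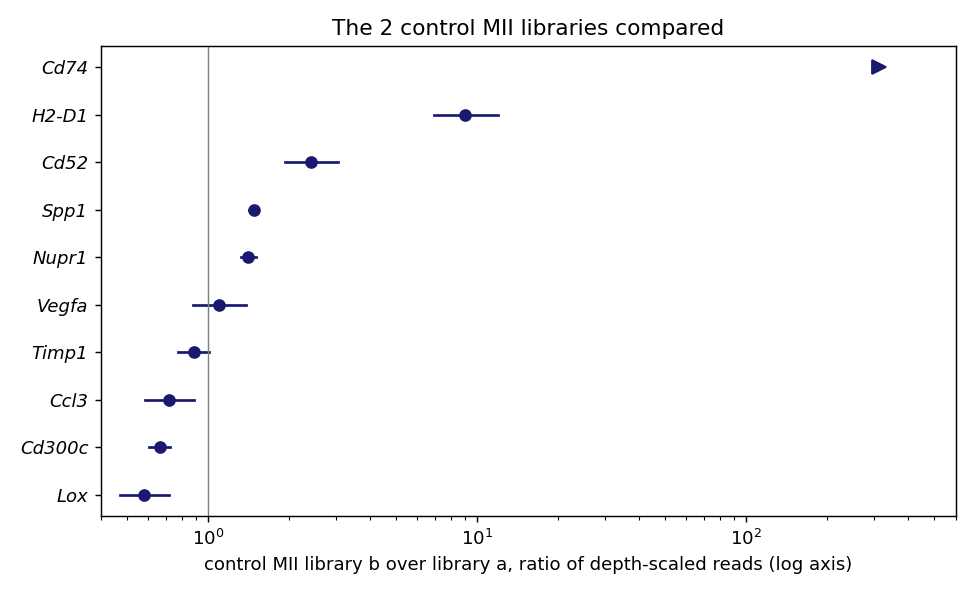
Ratio of depth-scaled reads in control MII library b over library a for each of the 10 genes, on a log axis; bars are 95% intervals that cover counting error only, and the arrowhead for Cd74 is a lower bound, since library a had 0 reads. Of the 10 genes, 7 lie within 2-fold, while H2-D1 and Cd74 stand far to the right.

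The control MII libraries did not hold the 10 genes in 1 proportion. In library b Spp1 was 1.48-fold (95% interval 1.42 to 1.54), Nupr1 1.41-fold (1.33 to 1.51) and Cd52 2.42-fold (1.94 to 3.04) as high as in library a. Cd300c was 1.51-fold (1.38 to 1.65), Ccl3 1.39-fold (1.13 to 1.72) and Lox 1.73-fold (1.4 to 2.13) lower in b. For Vegfa, 1.1-fold higher in b (0.879 to 1.38), and Timp1, 1.13-fold lower (0.989 to 1.29), the interval included no difference. H2-D1 was 9.05-fold (6.94 to 12) and Cd74 at least 313-fold higher in b. So the secreted and stress genes and Cd300c were present in both control libraries at like levels, and the antigen presentation pair largely in 1. Of all tested genes, 6.96% were at least 5 times as high in b as in a, or had over 15 reads in b and 0 in a.

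Per length, as RPKM, which divide the CPM by the exon length, the mean level in control MII ran Spp1 116, Cd300c 35.4, Nupr1 28.7, Timp1 18.3, Cd74 10.8, Ccl3 8.62, Cd52 5.98, H2-D1 4.5, Lox 1.48 and Vegfa 1.35 RPKM. Between the libraries Spp1 was first in both, at 93.7 and 138 RPKM in a and b. Cd300c stood at 42.6 and 28.2 RPKM, Nupr1 at 23.8 and 33.6 and Timp1 at 19.4 and 17.2, so that Cd300c and Nupr1 change places between the libraries. Ccl3 at 10.0 and 7.2 RPKM and Cd52 at 3.5 and 8.46 RPKM also do, while H2-D1 ranged from 0.895 to 8.1 RPKM and overlapped both. Lox at 1.88 and 1.09 RPKM and Vegfa at 1.28 and 1.41 RPKM did not separate either, and Cd74, at 0 and 21.6 RPKM, has no fixed place in the order.

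Control MII libraries held more reads of each of the 10 genes than control GV libraries did, though for Cd74 in library b only. Pooled reads of control MII were higher than those of control GV by 678-fold for Spp1 (95% interval 396 to 1.27e+03), 107-fold for Nupr1 (75.2 to 158), 33.4-fold for Timp1 (21.9 to 53.5), 12.9-fold for Ccl3 (8.45 to 20.6) and 4.71-fold for Cd300c (4.21 to 5.28). Cd52, Vegfa and Lox, with 0 reads in control GV, were at least 53.6-fold, 43.6-fold and 53.4-fold higher. Without control GV library 1, the Spp1 fold was 4630, that of Ccl3 156 and that of Timp1 at least 129; without control GV library 2 they were 349, 6.39 and 15.8. Cd74 was 80.4-fold higher (44.7 to 161) and H2-D1 93.1-fold (42.6 to 255), but without control MII library b H2-D1 was 17.5-fold higher and Cd74, with no read left, at least 2.21-fold lower. Cd52 was then at least 31.4-fold higher. Without control MII library a, the folds of Cd74 and H2-D1 were 149 and 158, and that of Cd74 was 38.1 without control GV library 2 and at least 144 without control GV library 1. Because control MII reads chose the genes, these values too are descriptions. Both control MII libraries stood above both control GV libraries in 9 of 10 genes, and in 34.8% of all tested genes.

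In knockout oocytes the genes did not share 1 direction between the stages. Knockout MII was 3.31-fold higher than knockout GV for Spp1 (95% interval 1.76 to 6.78) and 4.63-fold for Nupr1 (2.94 to 7.61), in both cases mainly through knockout MII library 1. Cd300c was at least 20.7-fold and Timp1 at least 1.83-fold lower in knockout MII, and for the 6 others the reads of both libraries together were at or under the floor at both stages, Lox having 4 and 0 reads in knockout MII.

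The comparison the rule left free is knockout against control before maturation. By the edgeR quasi-likelihood test, none of the 10 genes passed at GV, where 0.989% of the 15572 tested genes did (0.597% higher and 0.392% lower in the knockout). One had an unadjusted p below 0.05, Ccl3, against 10.8% of all genes. The genes entered the test through their control MII reads, Cd74 also through the control GV reads on which its GV difference rests. With few GV reads the genes could hardly pass, and nothing is read from the count. By the DESeq2 Wald test 1 of the 10 passed, Cd74 (adjusted p = 0.00481), whose 11 reads all lay in 1 control library, and 3.91% of all genes with an adjusted p did. Cd52, Vegfa, Lox and H2-D1 were at or under the floor in both GV groups, so that no difference was detectable at this depth.

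Cd300c had the most reads at GV and both knockout libraries below both controls, at 2.1 ± 2.64 CPM in knockout GV and 8.02 ± 3.82 CPM in control GV (SD, n = 2). The log2 fold change was -1.91 ± 0.93 SE (adjusted p = 0.526, edgeR). On the log scale the knockout pair spread more than the control pair, with 4 reads in knockout library 1 and 96 in library 2. Ccl3 held 1 and 0 reads in knockout GV and 22 and 1 in control GV (-4.16 ± 1.75, adjusted p = 0.423, edgeR). Its difference rests on control library 1, as does that of Cd74.

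The other genes with reads at GV gave no difference beyond the spread. Timp1, with reads in 1 library of each group, differed by -1.32 ± 1.52 on the log2 scale (adjusted p = 0.899), Nupr1 by -0.45 ± 1.37 (adjusted p = 0.987) and Spp1 by -0.07 ± 1.38 (adjusted p = 1, edgeR). The direction turned when 1 library was left out: without control GV library 1 the difference was 5.41 for Timp1 and 2.6 for Spp1, and without knockout GV library 1 it was 0.65 for Spp1 and 0.12 for Nupr1, still not past the threshold. H2-D1 had 0 reads in knockout and 2 and 4 reads in control GV libraries. The order with both knockout GV libraries below both controls held for 2 of 10 genes, Cd300c and H2-D1, and for 23.8% of all tested genes.

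The genes most like the 10 over the 8 libraries were partly, but not all, near absent in knockout MII. Likeness was measured by Pearson's r of log2(CPM + 1) among 12068 genes with a mean of at least 1 CPM. It is a description in which all points share the control MII libraries. Nearest to Spp1 and Nupr1 was Vim, vimentin, the intermediate filament of mesenchymal cells and leukocytes (r = 0.9928 and 0.9893), at 0.983 and 0 CPM in knockout MII and 11.1 and 10.0 CPM in control MII. Ctsz, a lysosomal cathepsin, was also among the 3 nearest genes of both Spp1 and Cd52.

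Timp1, Ccl3 and Lox shared Lgals1 and Cebpa among their 3 nearest genes. Lgals1, a secreted galectin, held 0.119 and 0.34 CPM in knockout MII and 8.58 and 6.54 CPM in control MII. Cebpa, a transcription factor of fat, liver and myeloid cells, had 0 reads in knockout MII and 4.65 and 3.17 CPM in control MII. Runx1, a transcription factor of blood formation, was among the 3 nearest to Vegfa (0.9929), at 0.0298 and 0 CPM in knockout MII and 3.46 and 4.33 CPM in control MII. Procr, the receptor of protein C on endothelium, came first for H2-D1 (0.9921), with 0.238 and 0 CPM in knockout MII and 1.58 and 8.0 CPM in control MII. Cd300c was nearest to Gal3st2c (0.9861) and Bex4 (0.9856), and Cd74 had no gene above 0.96, Selenon being first (0.9592). Some of the nearest were plainly read in knockout MII: Dscam, first for Lox (0.9902), held 6.88 and 6.49 CPM in knockout MII and 13.4 and 12.2 CPM in control MII, AU023762, second for Nupr1, held 5.57 and 2.38 CPM in knockout MII and 13.2 and 12.1 CPM in control MII, and Focad, second for Cd74, held 12.3 and 13.7 CPM in knockout MII and 12.6 and 21 CPM in control MII.

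**Figure D3:**
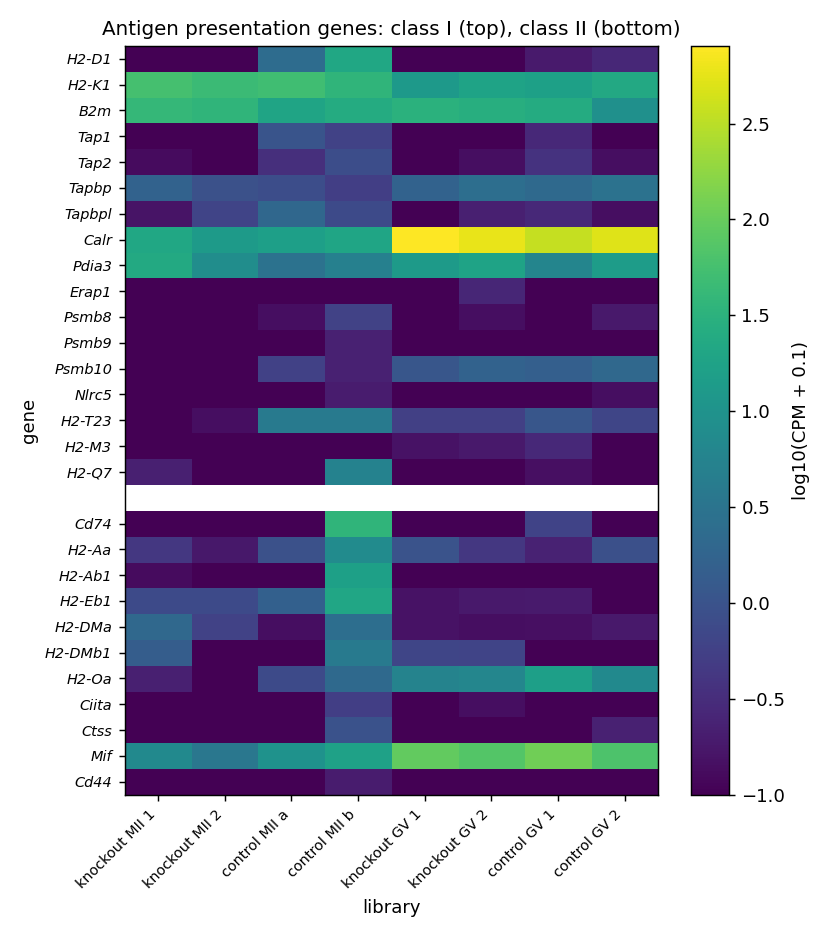
Levels of genes of class I (upper block, from H2-D1 to H2-Q7) and class II (lower block, from Cd74 to Cd44) antigen presentation in each library, as log10 of CPM + 0.1 by colour, for genes with a read in some library. The control MII b column is lighter than the a column over most of the class II block, while H2-K1 and B2m are light in every column.

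In antigen presentation, the most abundant class I genes did not share the pattern of H2-D1. Of the 16 others on the list, 9 were tested, none passed at GV and 1 fell at MII, beside 3.44% of all tested genes. The median log2 fold change at MII was -0.04, beside -0.01 over all genes. H2-K1, the other classical heavy chain, held 57.0 and 45.3 CPM in knockout MII and 50.6 and 36.0 CPM in control MII (adjusted p = 0.755). B2m, the light chain, which was named after its values were seen, held 39.8 and 36.2 CPM in knockout MII and 19.1 and 25.4 CPM in control MII. The gene that fell was H2-T23, a nonclassical heavy chain (Qa-1), at 0 and 0.0377 CPM in knockout MII and 3.81 and 3.77 CPM in control MII (log2 fold change -7.42 ± 1.44 SE, adjusted p = 0.0186, edgeR). It lay at like levels in both control libraries, unlike H2-D1. H2-Q7, named after its values were seen, had the pattern of H2-D1, at 0.119 and 0 CPM in knockout MII and 0 and 5.29 CPM in control MII. The chaperone Calr, the most abundant on the list, was at 21.1 and 13.5 CPM in knockout MII and 15.7 and 19.9 CPM in control MII.

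Of the 11 class II genes beside Cd74, 6 were tested and none passed at either stage, although the median log2 fold change at MII was -2.83. Summed, they held 11.4 and 4.64 CPM in knockout MII, 12.7 and 71.5 CPM in control MII, 98.1 and 79.7 CPM in knockout GV and 129 and 72.3 CPM in control GV. Control MII library b thus stood apart from library a for the whole list, with a read in 10 of the 11 genes against 5. The GV sums were mostly Mif, a cytokine that binds Cd74 and is made by many cells, which held 7.0 and 3.44 CPM in knockout MII and 9.69 and 17.3 CPM in control MII (-1.37 ± 0.45, adjusted p = 0.109). H2-Oa, part of the class II editor H2-O, held 0.119 and 0 CPM in knockout MII and 0.654 and 2.05 CPM in control MII (-4.30 ± 1.09, adjusted p = 0.0506).

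The classical class II chains were named after their values were seen. H2-Ab1 held 0.0298 and 0 CPM in knockout MII, 0 and 16.3 CPM in control MII and 0 reads in every GV library. H2-Eb1 held 0.655 and 0.642 CPM in knockout MII and 1.46 and 20.4 CPM in control MII, and H2-Aa 0.328 and 0.0755 CPM in knockout MII and 0.846 and 7.57 CPM in control MII. Like Cd74, each was high in library b and low or at 0 in library a. H2-DMa and H2-DMb1 of the same list were also higher in b than in a, but were read in knockout MII too. H2-DMa held 2 and 0.491 CPM in knockout MII and 0.0385 and 2.51 CPM in control MII. H2-DMb1 held 1.31 and 0 CPM in knockout MII and 0 and 4 CPM in control MII. Ciita, the master regulator of class II, had 0 reads in both knockout MII libraries and 0 and 0.43 CPM in control MII. Of the macrophage and class II lists, 4 further genes, picked out after their values were seen, likewise had 0 reads in knockout MII and in control library a and were read in control library b: Tyrobp, a signalling adaptor (1.55 CPM in b), Itgax, the integrin of dendritic cells (1.95 CPM), Spi1, the factor PU.1 (0.892 CPM), and Ctss, the protease that trims Cd74 (0.859 CPM). Other macrophage markers went the other way, among them the scavenger receptor Msr1, at 2.26 and 0.717 CPM in knockout MII and 0 reads in control MII.

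Chemokine and CD300 genes gave Ccl3 and Cd300c little company. Of 18 other chemokines and CC receptors, 13 had 0 reads in all 8 libraries, 3 were tested and none passed at GV or MII. Ccl4, with values given above, was lower in both knockout MII libraries than in both control MII libraries, like Ccl3, but did not pass. Ccl6 held 1.46 and 0.0377 CPM in knockout MII and 0 and 0.396 CPM in control MII. Of 10 other CD300 receptors and adaptors, 2 were tested and none passed. Cd300lf, an inhibitory receptor of myeloid cells, was the one with clear levels, at 22.8 and 24.3 CPM in knockout MII, 38.5 and 30.7 CPM in control MII, 5.1 and 3.43 CPM in knockout GV and 10.1 and 7.96 CPM in control GV. It differed by -0.56 ± 0.38 at MII (adjusted p = 0.431) and -1.08 ± 0.39 at GV (adjusted p = 0.304, edgeR). Cd300lf was thus read in the knockout MII libraries in which Cd300c had no read.

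**Figure D4:**
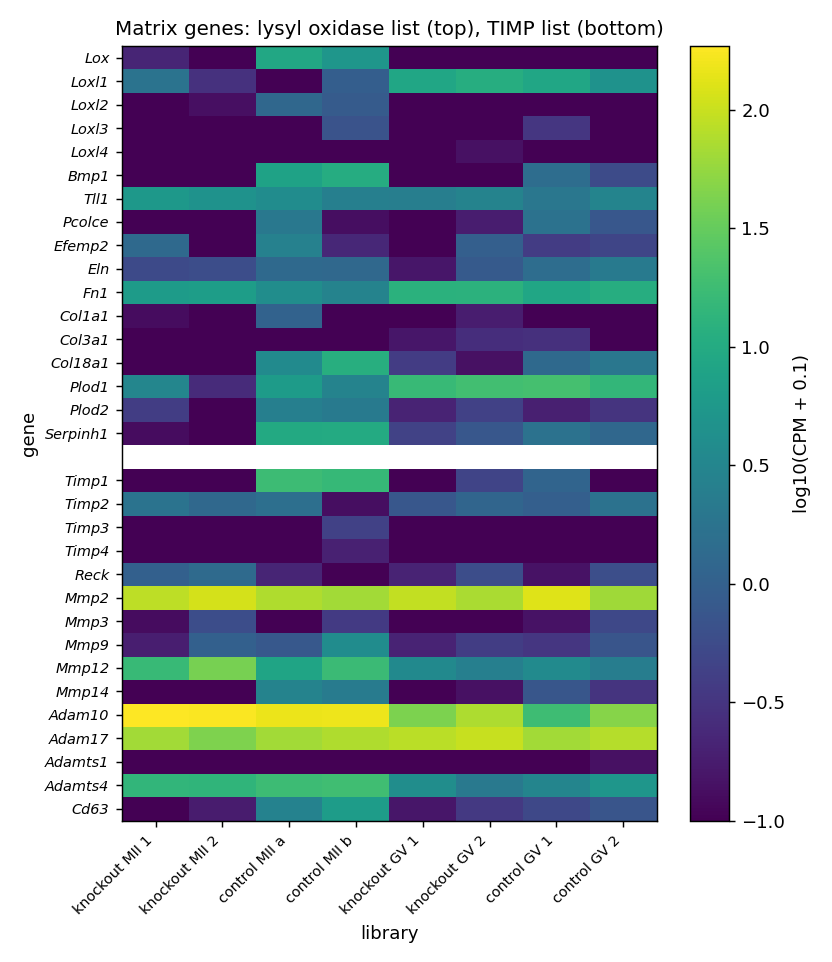
Levels of the lysyl oxidase and collagen maturation list (upper block, from Lox to Serpinh1) and the TIMP and metalloproteinase list (lower block, from Timp1 to Cd63) in each library, as log10 of CPM + 0.1 by colour, for genes with a read in some library. Lox, Bmp1, Col18a1, Serpinh1 and Timp1 are dark in both knockout MII columns and light in both control MII columns, and Mmp2, Adam10 and Adam17 are light in all.

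Genes that make or process collagen included several with the pattern of Lox. Of 16 others on that list, 12 were tested, none passed at GV, and 3 fell and none rose at MII. The median log2 fold change at MII was -2.66 (-2.37 with the 3 genes at 0 set to their bound). Over all 15572 tested genes 3.44% fell at MII, with a median of -0.01. The lists were chosen with earlier results of these data known, so nothing is read from how many of their genes fell. Serpinh1, the collagen chaperone, fell to 0.0298 and 0 CPM in knockout MII, against 9.5 and 9.78 CPM in control MII (-8.83 ± 1.17, adjusted p = 0.00397). Bmp1, which cleaves procollagen and activates Lox, had 0 reads in knockout MII and 7.54 and 10.5 CPM in control MII, at least 89.2-fold lower (adjusted p = 0.00946). Bmp1 also had 0 reads in knockout GV and 1.39 and 0.461 CPM in control GV, without passing (adjusted p = 0.0984). Col18a1, a basement membrane collagen, had 0 reads in knockout MII and 3.54 and 11.1 CPM in control MII, at least 72.4-fold lower (adjusted p = 0.0114, edgeR). These calls at MII held whichever library was left out. Summed without Lox, the list held 18.4 and 12 CPM in knockout MII and 44.7 and 45.3 CPM in control MII.

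Of the 16 genes beside Timp1 on its list, 11 were tested, none passed at GV and 2 fell at MII (3.44% of all tested genes). Their median at MII was 0.27 (-0.01 over all tested genes). Mmp14, a membrane-bound metalloproteinase, had 0 reads in knockout MII and 2.77 and 2.21 CPM in control MII, at least 24.6-fold lower (adjusted p = 0.0336). Cd63, a tetraspanin that binds Timp1, fell to 0 and 0.0755 CPM in knockout MII, against 2.69 and 6.41 CPM in control MII (-6.83 ± 1.54, adjusted p = 0.0332, edgeR). Both calls were lost when libraries were left out, that of Mmp14 with any of the 8 and that of Cd63 with 6 of the 8, all but knockout MII library 2 and control MII library a.

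Among osteopontin and its relatives and receptors, 10 of 13 were tested, 1 fell at GV and 1 at MII (0.392% and 3.44% of all tested genes). Itgb3, an integrin chain of the osteopontin receptor, fell to 6.91 and 5.37 CPM in knockout GV, against 34.9 and 42.5 CPM in control GV (-2.66 ± 0.38, adjusted p = 0.00967), a call lost when any 1 of the 4 GV libraries was left out. At MII it held 15.2 and 19.1 CPM in the knockout and 33.2 and 23.4 CPM in the control (-0.73 ± 0.36, adjusted p = 0.266). Itga5, of the fibronectin receptor, had 0 reads in knockout MII and 1.88 and 1.09 CPM in control MII, at least 14.7-fold lower (adjusted p = 0.0348, edgeR), a call lost with any 1 library left out other than control MII library b. The median of the list was 0.49 at GV and -0.48 at MII.

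Receptors of Vegfa were read in the knockout MII libraries in which Vegfa was not. Of 9 other ligands and receptors, 5 were tested and none passed. Nrp1, a coreceptor, held 117 and 112 CPM in knockout MII and 92.5 and 83.7 CPM in control MII (0.38 ± 0.26, adjusted p = 0.428). Flt1 held 64.5 and 40.5 CPM in knockout MII and 39.3 and 52.7 CPM in control MII (0.19 ± 0.35, adjusted p = 0.816, edgeR). Kdr, the main signalling receptor, held 0.179 and 2.53 CPM in knockout MII and 18.0 and 9.88 CPM in control MII (-3.37 ± 1.03, adjusted p = 0.0923). The pairs do not overlap for Kdr and do for Flt1.

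Vegfa and Lox also belong to the hypoxia list, of whose 20 other genes 18 were tested. None passed at GV and 1 fell at MII (median -0.64), beside 3.44% of all tested genes (median -0.01). That was Aldoa, a glycolytic enzyme, which fell to 7.45 and 1.66 CPM in knockout MII, against 58.9 and 66.2 CPM in control MII (-3.77 ± 0.66, adjusted p = 0.0121), whichever library was left out. Hif1a, the oxygen-regulated factor itself, held 158 and 180 CPM in knockout MII and 92.1 and 117 CPM in control MII (0.69 ± 0.26, adjusted p = 0.158, edgeR).

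Of 22 genes of the ATF4 stress response beside Nupr1, 21 were tested, none passed at GV and 2 fell at MII (median -0.71, and -0.34 at GV). Among all tested genes 3.44% fell at MII, with medians of -0.01 at MII and 0.00 at GV. Xbp1, a transcription factor of the unfolded protein response, fell to 0.0298 and 0.0377 CPM in knockout MII, against 5.46 and 5.42 CPM in control MII (-7.15 ± 1.23, adjusted p = 0.0115), whichever library was left out. Chac1, a glutathione-degrading enzyme, had 0 reads in knockout MII and 0.846 and 0.562 CPM in control MII, at least 6.95-fold lower (adjusted p = 0.0321, edgeR), a call lost with any 1 library left out other than those of control MII. Atf4 itself held 85.2 and 74.1 CPM in knockout MII and 70.8 and 76.5 CPM in control MII (adjusted p = 0.881), and so overlapped between the groups.

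**Figure D5:**
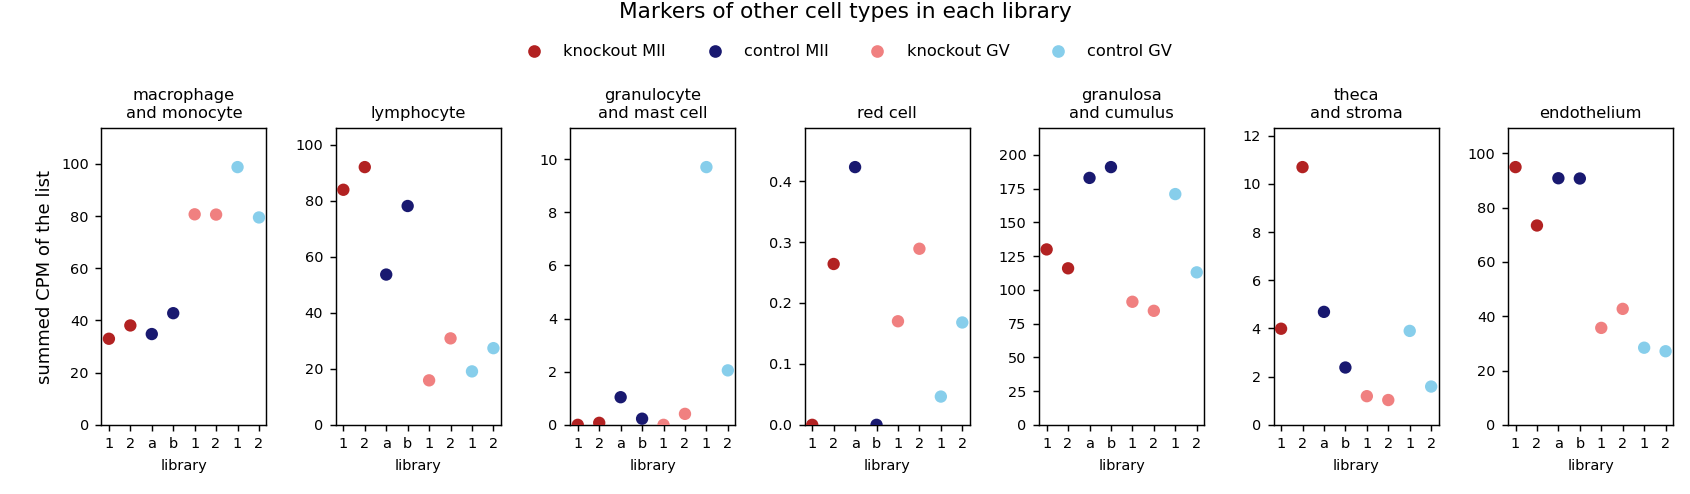
Summed CPM of markers of 7 other cell types in each library, with 1 point per library coloured by group and a separate axis, from 0, for each cell type. Macrophage sums are alike in the 4 MII libraries and higher at GV, and granulosa and cumulus sums in knockout MII (130 and 116 CPM) lie below those in control MII (183 and 191 CPM).

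Markers of other cell types were read next. The 25 macrophage and monocyte markers summed to 33.0 and 38.1 CPM in knockout MII, 34.8 and 42.8 CPM in control MII, 80.7 and 80.6 CPM in knockout GV and 98.8 and 79.5 CPM in control GV. Of these, Ptprc, Cd14, Adgre1, Lyz2 and Aif1 had 0 reads in all 8 libraries. The rest of the sum came from genes such as Lgals3 (1.73 and 7.06 CPM in knockout MII, 15.7 and 13.5 CPM in control MII), Gpnmb (13.8 and 7.25 CPM in knockout MII, 9.88 and 9.65 CPM in control MII) and Mrc1 (6.28 and 12.5 CPM in knockout MII, 3.96 and 2.68 CPM in control MII), and at GV from C1qb (46.3 and 46.8 CPM in knockout GV, 69.3 and 50.7 CPM in control GV). Cd68, Fcgr3 and Laptm5 were also read in every library, at low levels, and Csf1r in the GV libraries alone. Of 10 tested, none passed at GV or MII. In number, 10 and 8 of the markers had a read in knockout MII and 8 and 14 in control MII, the 14 being in library b, where Cd74 was read.

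The 17 lymphocyte markers summed to 84 and 92.1 CPM in knockout MII and 53.7 and 78.2 CPM in control MII, nearly all of it Ms4a1, and 8 of them had 0 reads everywhere. Of the granulocyte and mast cell markers 6 of 11 had 0 reads everywhere, with sums of 0 and 0.0755 CPM in knockout MII and 1.04 and 0.231 CPM in control MII, and red cell markers summed to at most 0.423 CPM. Of the 4 lymphocyte and 1 granulocyte and mast cell genes tested none passed at either stage, and 0 red cell genes were tested. Over all tested genes 0.989% passed at GV and 5.14% at MII, so with so few tested nothing is read from this. Endothelial markers summed to 94.9 and 73.4 CPM in knockout MII and 90.8 and 90.7 CPM in control MII, mostly Flt1 and Pecam1. Those of theca and stroma summed to 3.99 and 10.7 CPM in knockout MII and 4.69 and 2.38 CPM in control MII. Only 7 endothelial and 3 theca and stroma genes were tested, with no call in either list.

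Granulosa and cumulus markers were lower in sum in the knockout at both stages. The 29 markers summed to 130 and 116 CPM in knockout MII, 183 and 191 CPM in control MII, 91.2 and 84.5 CPM in knockout GV and 171 and 113 CPM in control GV. Of 21 tested, none passed at GV (median -0.73) and 2 fell at MII (median -2.00, or -1.78 with genes at 0 set to their bound). Among all tested genes 3.44% fell at MII, with medians of 0.00 at GV and -0.01 at MII. Gja1, the gap junction protein connexin 43, fell to 0.0298 and 0 CPM in knockout MII, against 3.46 and 3.07 CPM in control MII (-7.27 ± 1.29, adjusted p = 0.0129). Hsd17b1, of estradiol synthesis, fell to 0.0596 and 0 CPM in knockout MII, against 3.04 and 2.35 CPM in control MII (-6.19 ± 1.36, adjusted p = 0.0305, edgeR), a call lost when either knockout GV library, control GV library 1 or knockout MII library 2 was left out. With only the 4 MII libraries fitted, the calls of Gja1 and Hsd17b1 were both lost. The largest part of the MII sums was Cyp19a1, the aromatase, at 62.9 and 62.0 CPM in knockout MII and 87.5 and 73.5 CPM in control MII. Nr5a2, also abundant, was instead higher in the knockout, at 39.3 and 44.8 CPM in knockout MII and 21.7 and 31.1 CPM in control MII. It did not pass (0.67 ± 0.30, adjusted p = 0.221, edgeR).

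Other granulosa and cumulus genes, mostly named after their values were seen, were uneven between the control MII libraries. Star, which brings cholesterol into mitochondria, held 2.56 and 0.868 CPM in knockout MII and 0.115 and 13.7 CPM in control MII. The cumulus expansion genes Ptgs2 and Tnfaip6 were read in library b alone of the control pair: Ptgs2 had 0 reads in knockout MII and 0 and 2.87 CPM in control MII, and Tnfaip6 had 0 and 0.0377 CPM in knockout MII and 0 and 5.09 CPM in control MII. Vcan of the same list also stood mostly in library b, with 0 reads in knockout MII and 0.846 and 5.62 CPM in control MII. Ptx3 and Has2 differed from these. Ptx3 held 1.22 and 0 CPM in knockout MII and 5.88 and 1.35 CPM in control MII. Has2 held 1.64 and 0.642 CPM in knockout MII and 0 and 0.562 CPM in control MII. Kitl, the Kit ligand, was higher in knockout MII, at 7.54 and 2.91 CPM, than in control MII, at 0.462 and 1.75 CPM. Fst, a binder of activin, held 2.5 and 0.113 CPM in knockout MII and 10.7 and 28.5 CPM in control MII, while Inha, the inhibin subunit, was the higher in library a (2.74 and 0 CPM in knockout MII, 23.4 and 8.42 CPM in control MII). The part of these cells in the levels of the 10 genes was not tested.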

How the data were processed

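The authors deposited 1 table of read counts per Ensembl gene for 8 libraries, with 5 summary entries that name no gene. These entries held 22% to 35.13% of reads and were left out. Per the submitters' processing notes, reads were handled with Bowtie2, HTSeq and edgeR on mm10. Tool versions, the annotation and the strand setting: not given in the sources used here. Names, positions and exon lengths came from GENCODE mouse release 21, which named 54809 of 54838 identifiers. Control MII columns share 1 name, so they were used as unnumbered replicates.

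A model over all 8 libraries was made from the counts with edgeR 4.0.16 (R 4.3.3, filterByExpr by group, TMM scaling, quasi-likelihood test, two-sided), and p-values were adjusted by Benjamini-Hochberg over the 15572 genes tested, with a threshold of 0.05. The fit had 4 residual degrees of freedom. CPM are TMM-scaled and relative to reads in tested genes. Folds of the 10 genes are ratios of pooled reads with exact 95% intervals. Where a group had 0 reads, the fold is a bound against 3 reads per library. DESeq2 1.42.0, other scalings and filters, a replicate block and leaving out each library were the alternatives. The fit was checked on simulated counts, with changes placed in genes averaging at least 5 CPM. At GV it recovered 7.27% of log2 changes of 1, 64.3% of 2 and 100% of 4. At MII these shares were 9.46%, 77.2% and 98.6%. A gene that did not pass may thus still have changed.

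The genes and the 18 lists (279 genes) were chosen with earlier results of these data known. Genes named beside the 10 were the 3 most like each (1 of them is not reported here), list members called at GV or, up to 4, at MII, with the 2 highest where fewer than 2 were called, and the 4 highest markers of each cell type. The protein features planned for the 10 genes were not analysed here.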

Additional observations from a re-analysis of the deposited data

How the results depend on the processing

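At GV, 154 genes passed over the whole table (93 higher and 61 lower in the knockout), against 121 (59 and 62) when libraries were scaled by their totals alone, with the median over the tested genes then at -0.27. The count was 527 with no filter on low counts, 702 with only the 4 GV libraries fitted, 526 by DESeq2 and 29 to 187 when 1 library was left out, with 29 without control GV library 1, 35 without control GV library 2, 57 without knockout GV library 1 and 87 without knockout GV library 2. With the replicate number as a block it was 1522. The numbers do not pair the libraries: same-numbered libraries correlated in their deviations at 0.119 between knockout and control GV, 0.013 between knockout MII and control GV and -0.02 between knockout MII and knockout GV. No paired analysis was possible at MII because the control MII columns carry no number. At MII, 800 genes passed, against 1829 with no filter, 392 with only the 4 MII libraries, 1773 by DESeq2 and 440 to 771 when 1 library was left out. For maturation in control oocytes 7649 passed, and 5075 to 7974 when 1 library was left out. The cause of these shifts was not tested. A group left with 1 library was assumed to vary like the other groups.

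For the 10 genes, 118 of 128 recomputed GV fold changes kept their direction and side of the threshold. Of the others, 2 newly passed, Cd300c with the block (-2.37 ± 0.72 SE, adjusted p = 0.0306) and Cd74 by DESeq2. In 5 the direction turned, none past the threshold: Spp1 to 2.6 and Timp1 to 5.41 without control GV library 1, Spp1 to 0.65 and Nupr1 to 0.12 without knockout GV library 1, and Spp1 to 0.05 with the block. With 1 library left out, the log2 fold change at GV thus ran from -2.26 to 2.6 for Spp1, -1.57 to 0.12 for Nupr1 and -6.71 to 5.41 for Timp1, the lowest each without knockout GV library 2. In 3, for Cd74, Vegfa and Cd52, the library left out held all GV reads and no difference remained. Cd74 turned from 80.4-fold higher in control MII than in control GV to at least 2.21-fold lower without control MII library b, which held all of its control MII reads. Without library a its fold was 149. Scaled by totals alone, all 10 control MII means moved by less than 1 SD. At 3 reads per library, levels below 0.0894 to 0.17 CPM could not be seen.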
